A study of Ovis aries with 6 samples.

Results

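The genes described are the sheep genes DSG1, DSG2, DSG3, DSG4, DSC1, DSC2, DSC3, DSP, PKP1 and CDH1, which encode cadherins and plaque proteins of the junctions that hold keratinocytes together. They were chosen by gene identity, through the NCBI gene numbers of the count tables, and all 10 were found among the 26741 genes counted. Nuclear RNA was counted by 10x Genomics droplet sequencing in rumen epithelium of the ventral sac (ventral bursa in the labels), the stratified lining of the forestomach, from 6 male lambs. The tissue had been frozen in liquid nitrogen, and 1 library was made per animal. There were 3 animals in a group named MGHS and 3 in a group named MGNS, which were picked at random from their groups, per the labels' protocols. The labels spell out neither name and give no age or breed, and the series title speaks of supplementary feeding of sheep on pasture.

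Desmosomes are junctions that tie the intermediate filaments of neighbouring cells together. Desmogleins (DSG) and desmocollins (DSC) are their transmembrane cadherins. Plakophilins such as PKP1 and plakoglobin bind the cadherin tails, and desmoplakin (DSP) links that plaque to keratin. In human and mouse skin the cadherins change as cells move outward: DSG3 and DSC3 are strong in the lower layers and DSG1 and DSC1 in the upper ones, and DSG4 is found in the upper layers and in hair. CDH1, E-cadherin, belongs to the adherens junction, the actin-bound junction that forms alongside. No sequence of these genes was available in the sources used here, so none is shown. DSG1 to DSG4 and DSC1 to DSC3 lie on sheep chromosome 23, DSP on chromosome 20, PKP1 on chromosome 12 and CDH1 on chromosome 14. The annotated span of DSC1 overlaps those of DSG1, DSG3 and DSG4. The sources used here do not say whether counting used strand, so UMIs in those overlaps are uncertain.

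The files held 67553 barcodes with 34418856 to 59997793 unique molecular identifiers (UMIs, counts of captured molecules) per animal. After filtering, 5407, 6376 and 10201 nuclei were retained in MGHS 1 to 3 and 4830, 8097 and 6911 in MGNS 1 to 3, 41822 in all. Of the barcode sequences, 515 occurred in more than 1 library, with 19 to 49 shared by a pair of libraries before filtering and at most 22 among retained nuclei of a pair. Clusters named from marker genes, none of them one of the 10, gave 13327 keratinocyte-like nuclei. Of these, 4532 were basal-like, 1499 cycling, 3083 spinous-like and 4213 granular-like. Basal-like nuclei were led by CA12, HSD17B2, TP63 and KRT15, and granular-like nuclei by SAMD8, DUSP14, CRISP3 and PADI1. The spinous-like cluster had 6 of 9 detected spinous markers at least 2-fold up but none among its 10 leading genes, which were headed by DSC1, B4GALNT3 and DSG2. It also had 7 of 14 detected granular markers at least 2-fold up. The tissue label reads rumen epithelial, yet 8643 nuclei were T or NK-like and further clusters were fibroblast-like, endothelial-like and myeloid. A cluster of 4762 nuclei led by GSTA1 and S100A2 was left unnamed, and 2924 of its nuclei came from MGHS 3. Its median nucleus held only 531 UMIs, but a glia-like cluster was named at a median of 430. In this unnamed cluster 10 of 14 detected keratinocyte markers and 8 of 9 spinous ones were at least 2-fold up. Another unnamed cluster of 961 nuclei, 500 of them from MGHS 3, had 8 of 14 and 6 of 9. Neither was counted among the keratinocyte-like nuclei. These classes were rebuilt here, so their borders are a choice of the clustering.

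The first question was in which layers the genes are read. Levels are in CPM, a gene's UMIs summed over the nuclei of a class in each animal and scaled to the same total of UMIs for every sum. They are compared between classes within a gene, not between genes, because no scaling for transcript length was made. Differences between layers are descriptions without a test, since the layers were made from the same nuclei. T or NK-like nuclei, which should lack these junctions, served as the background level of each gene. Neutrophil-like nuclei, at a median of only 755 UMIs, held 234.0 to 492.8 CPM of DSC2, against 164.7 to 256.5 CPM in basal-like nuclei. For DSC1 those ranges were 102.0 to 616.3 CPM and 73.1 to 148.6 CPM. They were 342.9 to 644.7 CPM and 384.1 to 789.8 CPM for DSG3, and 324.3 to 539.7 CPM and 427.1 to 590.7 CPM for DSP. The source of these UMIs in neutrophil-like nuclei was not tested.

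Of the desmogleins, DSG1, the target of the autoantibodies of pemphigus foliaceus, was read in the spinous-like and granular-like layers. Its level in spinous-like nuclei was 208.3, 216.1 and 297.2 CPM in MGHS 1 to 3 and 210.7, 149.2 and 437.6 CPM in MGNS 1 to 3. In basal-like nuclei it averaged 2.26 ± 2.14 CPM over the 6 animals and in cycling nuclei 3.28 ± 3.69 CPM (SD), no more than the 3.92 ± 2.72 CPM of T or NK-like nuclei. Basal-like nuclei are therefore read as background for DSG1. After each nucleus was thinned to 2000 UMIs, 33.4 ± 10.8% of spinous-like nuclei held a DSG1 UMI, against 0.531 ± 0.404% of T or NK-like nuclei. Unthinned, those shares were 60.02% and 0.935%, at median depths of 9939 and 2615 UMIs. DSG4 behaved like DSG1: it averaged 126.2 ± 41.2 CPM in spinous-like and 46.5 ± 22.4 CPM in granular-like nuclei, and 0.953 ± 0.705 CPM in basal-like nuclei, beside 1.08 ± 0.727 CPM in T or NK-like nuclei.

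DSG2, which is also widespread in simple epithelia, and DSG3, the pemphigus vulgaris antigen, were read in every keratinocyte layer. DSG2 averaged 96.0 ± 36.9 CPM in basal-like, 590.5 ± 187.8 CPM in spinous-like and 347.0 ± 136.5 CPM in granular-like nuclei, and the ranges over animals of the basal-like layer did not overlap those of the other two. DSG3 averaged 564.3 ± 149.1 CPM in basal-like, 2328.4 ± 218.2 CPM in spinous-like and 818.0 ± 242.3 CPM in granular-like nuclei. In all 6 animals DSG3 was higher in spinous-like than in basal-like nuclei, by 2.95-fold to 5.60-fold. Its granular-like level exceeded the basal-like one in every animal too, but the ranges of those layers overlapped.

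The desmocollins had opposite patterns. DSC3 was the only gene of the 10 with its highest mean keratinocyte levels in cycling and basal-like nuclei. It averaged 195.2 ± 23.9 CPM in basal-like, 218.8 ± 17.7 CPM in cycling, 73.1 ± 20.1 CPM in spinous-like and 17.3 ± 8.89 CPM in granular-like nuclei, and the ranges of basal-like, spinous-like and granular-like nuclei did not overlap. In granular-like nuclei DSC3 was near the 11.4 ± 6.14 CPM of T or NK-like nuclei, exceeding it in 4 of 6 animals. DSC1 went the other way, with 101.5 ± 27.6 CPM in basal-like, 2641.0 ± 737.6 CPM in spinous-like and 1089.6 ± 443.6 CPM in granular-like nuclei. Its spinous-like level was 15.7-fold to 39.0-fold its basal-like level in the 6 animals. In T or NK-like nuclei DSC1 averaged 44.6 ± 26.6 CPM, and its range there, 15.3 to 79.3 CPM, overlapped the basal-like range of 73.1 to 148.6 CPM. Within each of the 6 animals the basal-like level was the higher one, by 1.42-fold to 4.78-fold. DSC2, the most widely expressed desmocollin, averaged 215.2 ± 36.8, 2238.1 ± 386.7 and 1153.3 ± 163.7 CPM in the same order of layers.

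The plaque genes shared the spinous-like maximum but differed in the decline above it. From spinous-like to granular-like nuclei PKP1 was lower in 6 of 6 animals and DSP in 5 of 6. DSP averaged 501.0 ± 58.8 CPM in basal-like, 1494.0 ± 148.9 CPM in spinous-like and 1079.6 ± 427.1 CPM in granular-like nuclei, and the ranges of the spinous-like and granular-like layers overlapped. PKP1, whose human loss causes skin fragility, averaged 140.5 ± 19.7, 437.2 ± 45.4 and 68.8 ± 15.2 CPM in those layers. Its granular-like level was below its basal-like level in 6 of 6 animals, and the ranges did not overlap. CDH1 averaged 172.9 ± 51.1 CPM in basal-like, 428.6 ± 98.0 CPM in spinous-like and 186.5 ± 125.1 CPM in granular-like nuclei. The wide granular-like SD of CDH1 came with a split by group: the granular-like level was below the basal-like one in the 3 MGHS animals and above it in the 3 MGNS animals.

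**Figure D1:**
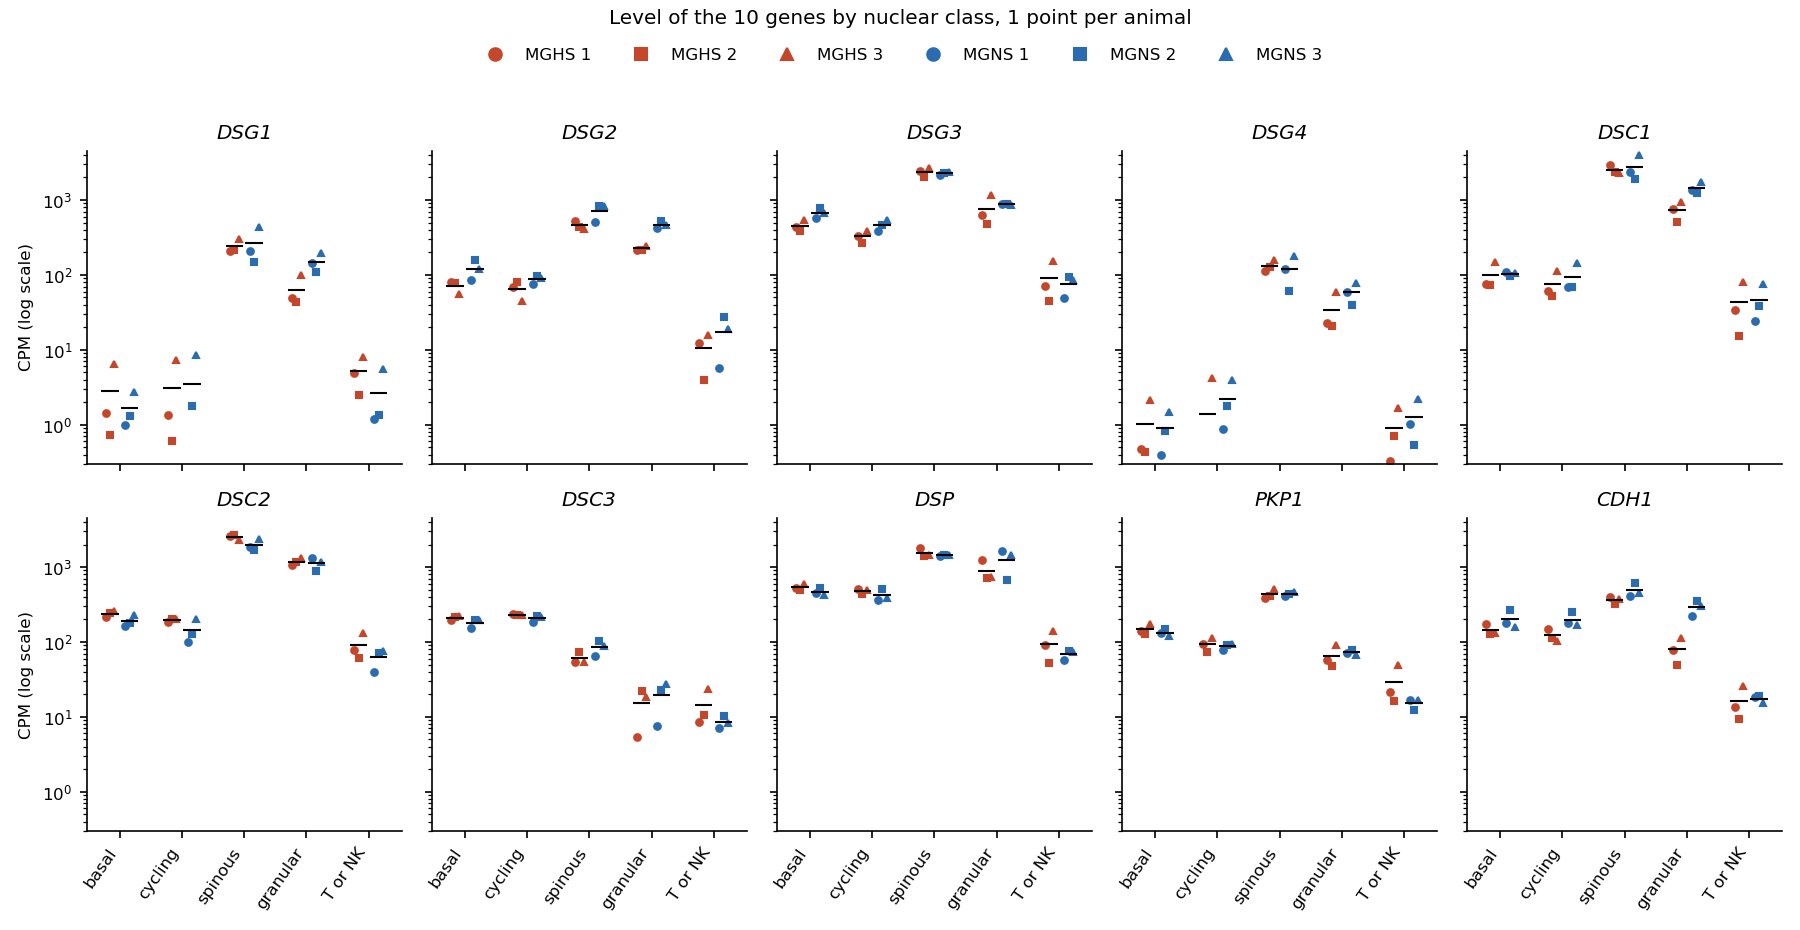
Level of each gene (CPM, log axis) in basal-like, cycling, spinous-like, granular-like and T or NK-like nuclei, 1 point per animal, MGHS red and MGNS blue, with black lines at group means; values of 0 lie off the axis. Every gene but DSC3 is highest in spinous-like nuclei, and DSG1 and DSG4 in basal-like nuclei sit at the T or NK-like level.

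A finer clustering, at Leiden resolution 1.2, split the keratinocyte-like nuclei further and was looked at after the main values were seen. It gave 5 non-cycling clusters whose summed basal markers fell in the order 2, 5, 7, 11 and 3, while granular markers rose from 440.2 to 47680.1 CPM along it. DSC3 averaged 197.2, 169.9, 49.8, 31.4 and 12.4 CPM in that order. DSG1 averaged 1.91, 21.9, 324.6, 242.6 and 27.8 CPM. In finer cluster 5 DSC3 was thus near its highest level and DSG1 far below its own. DSC1 averaged 97.6, 363.8, 3350.3, 2393.4 and 381.2 CPM, and DSC2 193.4, 634.8, 2688.0, 2133.2 and 654.3 CPM. PKP1 dropped sooner, with 478.8 CPM in finer cluster 7 and 140.0 CPM in finer cluster 11. DSP had similar means in those clusters, at 1722.9 ± 175.7 and 1685.2 ± 446.5 CPM, but its animals moved in both directions. It rose from 2004.5 to 2331.1 CPM in MGHS 1 and fell from 1769.4 to 1180.4 CPM in MGNS 2.

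**Figure D2:**
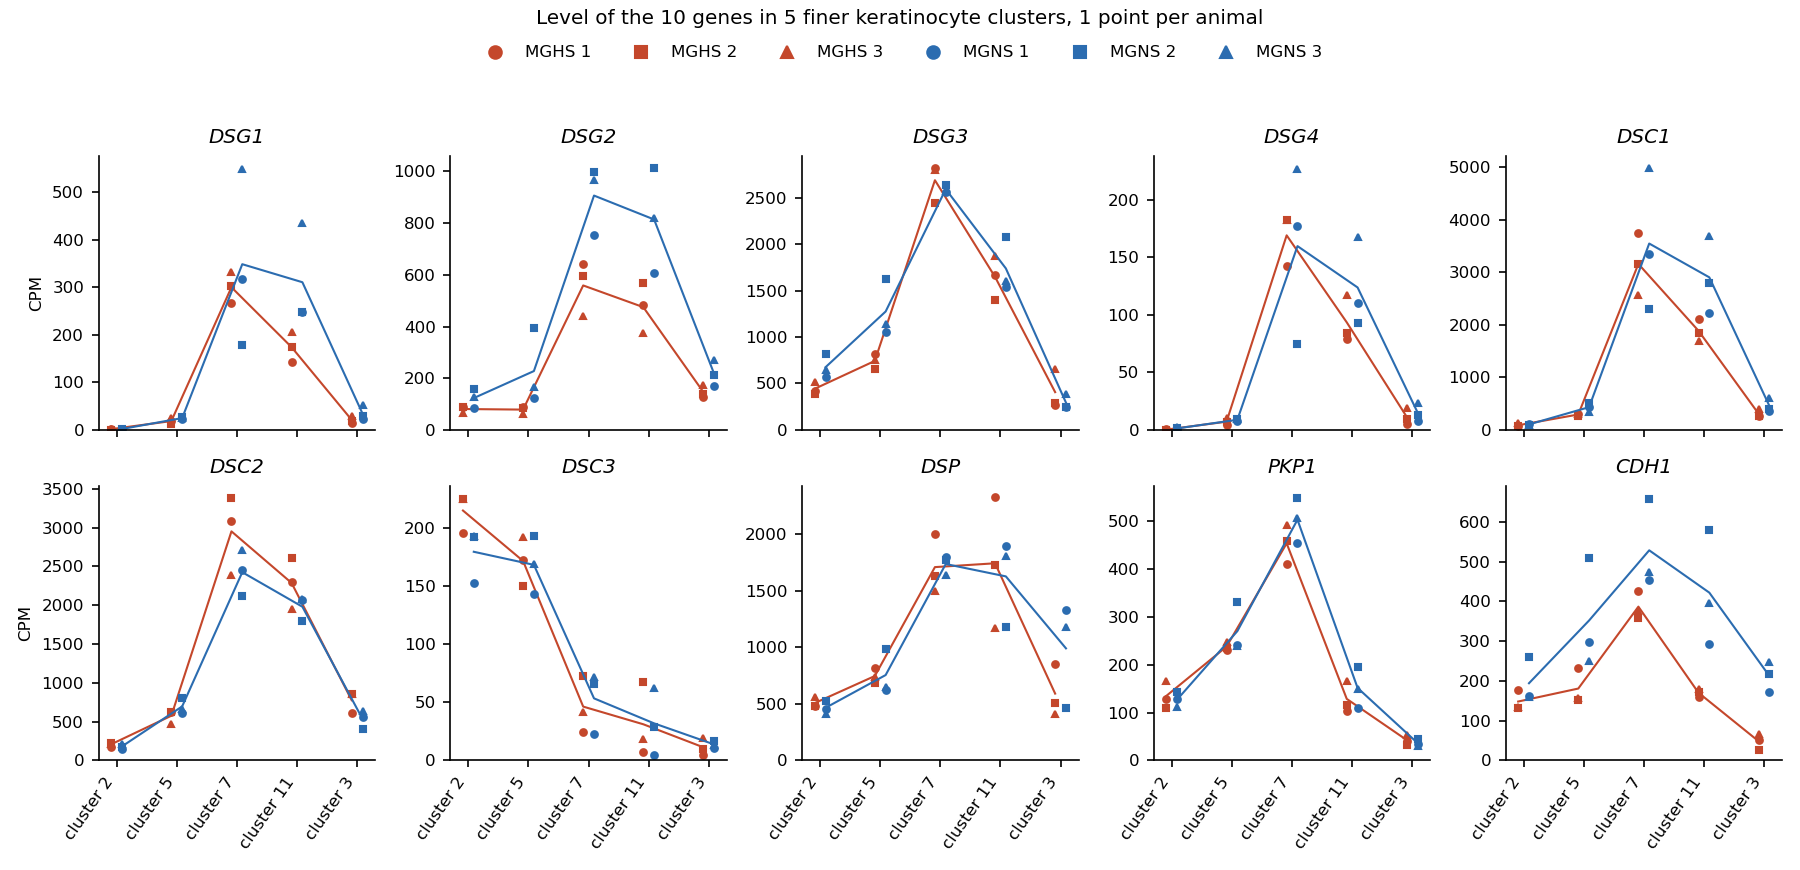
Level of each gene (CPM, each panel on its own axis from 0) in 5 finer keratinocyte-like clusters ordered by falling basal and rising granular markers, 1 point per animal, with lines through the MGHS (red) and MGNS (blue) means. DSC3 falls along the order, the other genes peak in finer cluster 7 or, for DSP in MGHS, in finer cluster 11, and the CDH1 points of MGHS lie below all those of MGNS in finer clusters 5, 7, 11 and 3.

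Patterns were also compared across the 84 points of 14 classes in 6 animals, as Pearson's r of log2 (CPM + 10) against 18846 genes. The points share libraries and differ in depth, so r is only a description. DSC1 was most like DSC2 (r = 0.94), CARD14 (0.92) and DSG1 (0.92), and DSG1 was most like DSC1 (0.92), DSG4 (0.91) and CARD14 (0.91). DSG3 was most like ESRP1 (0.96), an epithelial splicing regulator, DSP (0.95) and MYO5B (0.94). DSG4 was most like LOC132657980 (0.91), DSG1 and PTK6 (0.89), and DSG2 like B4GALNT3 (0.95), MYO5B (0.94) and MACC1 (0.93). The genes most like DSC2 after DSC1 were GRHL1 (0.93), a transcription factor known to regulate Dsg1 in mouse, and ARHGEF4 (0.93). DSC3 stood with IL20RA (0.91), LOC132657483 (0.89) and TP63 (0.89), the master regulator of basal keratinocytes. PKP1 was most like MPZL2 (0.94), TMEM79 (0.94) and ESRP2 (0.94), and DSP most like DSG3, ESRP1 and HOOK1 (0.95 each). CDH1 had the lowest values, with ST14 (0.83), LSR (0.79) and IFNLR1 (0.77). Within the 24 keratinocyte points alone, DSC3 had negative r with DSC1 (-0.72) and DSC2 (-0.73), and DSG1 had r = 0.99 with DSC1 and with DSG4. The annotations of DSG1 and DSG4 each overlap that of DSC1.

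CDH1 was also read outside the keratinocytes. A myeloid cluster of 1194 nuclei, one of the pair named macrophage or dendritic-like, held 425.0, 384.9 and 265.0 CPM of CDH1 in MGHS 1 to 3 and 249.0, 195.2 and 230.9 CPM in MGNS 1 to 3. The 3 MGHS values lay above the 3 MGNS values, and this difference was not tested. The other cluster of that name, led by C1QA, VSIG4 and MRC1, averaged 12.9 ± 4.87 CPM over the 6 animals, and T or NK-like nuclei 16.9 ± 5.67 CPM. The CDH1-bearing cluster was led by CD83, CCL22, CCR7 and CD207, which encodes langerin. E-cadherin is known on Langerhans cells of human and mouse skin. KRT5, a keratin of basal keratinocytes, was at 87.4 CPM in this cluster, against 1110.2 CPM in basal-like nuclei, and the part of keratinocyte RNA in its CDH1 level was not tested. DSP averaged 97.1 ± 60.7 CPM there and 81.3 ± 31.9 CPM in T or NK-like nuclei, and DSG3 averaged 107.1 ± 90.6 CPM there and 83.0 ± 40.01 CPM in T or NK-like nuclei. Against the cluster led by C1QA, the mean of DSP was 1.67-fold, higher in 6 of 6 animals. That of DSG3 was 2.00-fold, higher in 5 of 6, and that of CDH1 22.7-fold, higher in 6 of 6.

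**Figure D3:**
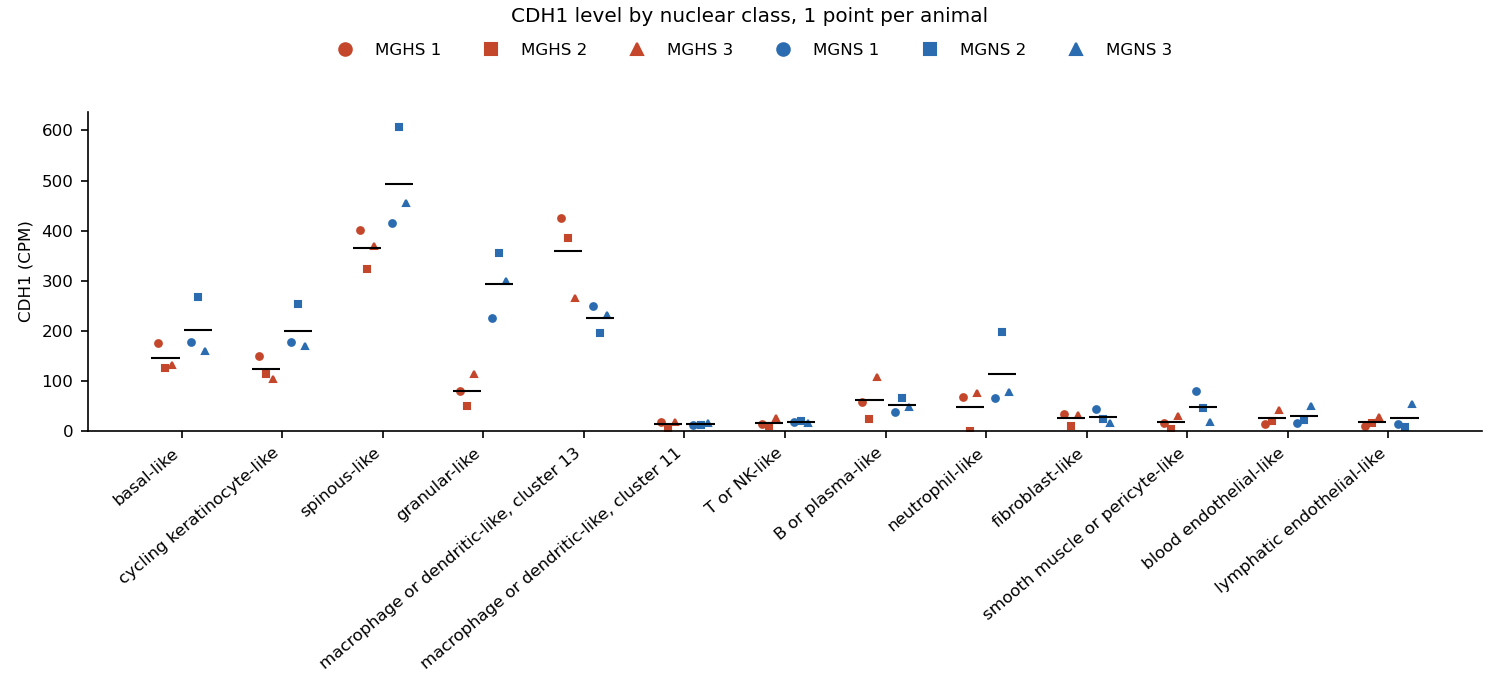
Level of CDH1 (CPM, linear axis) by class, 1 point per animal, MGHS red and MGNS blue, black lines at group means. Cluster 13, led by CD83 and CCR7, averages 291.7 CPM, while cluster 11 and T or NK-like nuclei stay under 30.

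The second question was whether the groups differed within the layers. No gene of the 10 passed an adjusted p of 0.05 in any layer (edgeR quasi-likelihood test, Benjamini-Hochberg adjusted over all genes tested in that layer). Few other genes did either: 0 of 16296 genes (0%) in all keratinocyte-like nuclei, 4 of 13509 (0.0296%) in basal-like, 17 of 10330 (0.165%) in cycling, 9 of 12581 (0.0715%) in spinous-like and 1 of 12120 (0.00825%) in granular-like nuclei. With all keratinocyte-like nuclei, 2882 genes (17.7%) had an unadjusted p under 0.05. DESeq2 called 993 genes in the same sums, and limma-voom 0. The values below are CPM scaled by the trimmed mean of M values (TMM), and fold changes are log2 of MGHS over MGNS with an SE derived from the test's F value.

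CDH1 had the lowest fold change of the 10 genes in all keratinocyte-like, cycling and granular-like nuclei. In granular-like nuclei it stood at 100.6, 68.3 and 92.8 CPM in MGHS 1 to 3 and at 186.2, 338.2 and 265.5 CPM in MGNS 1 to 3. Every MGHS animal was below every MGNS animal, as was true of 10.6% of the genes tested in that layer. The log2 fold change was -1.59 ± 0.36, with an unadjusted p of 0.00183 and an adjusted p of 0.162 (edgeR). In all keratinocyte-like nuclei CDH1 stood at 193.2, 137.8 and 157.0 CPM in MGHS and at 235.1, 403.3 and 277.4 CPM in MGNS, again without overlap, a pattern seen in 13.4% of genes. That log2 fold change was -0.91 ± 0.26 (edgeR adjusted p = 0.178). DESeq2 put both past the threshold, at -1.61 (adjusted p = 0.00349) in granular-like nuclei and -0.90 (adjusted p = 0.0436) in all keratinocyte-like nuclei. DESeq2 called 4.04% of the genes it gave an adjusted p in granular-like nuclei and 6.48% in all keratinocyte-like nuclei.

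The other layers gave smaller values for CDH1 with the same sign: -0.37 ± 0.21 in basal-like, -0.56 ± 0.19 in cycling and -0.31 ± 0.19 in spinous-like nuclei (edgeR adjusted p 0.447, 0.259 and 0.480). Without MGNS 2 the basal-like value became -0.17 and the spinous-like one -0.18. Groups did not overlap in cycling nuclei, as for 9.93% of genes there, and overlapped in the other two. The group difference in granular-like nuclei against that in basal-like nuclei was tested as an interaction, which gave -1.21 ± 0.31 for CDH1 (unadjusted p = 0.00254, edgeR adjusted p = 0.234). No gene of 14717 (0%) passed that test. The granular-like class held different mixtures in the groups: finer cluster 3, with the most granular markers, made up 71.9 ± 13.8% of it in MGHS and 55.6 ± 5.53% in MGNS. Within finer cluster 3 alone CDH1 stood at 51.3, 27.1 and 65.6 CPM (plain) in MGHS and at 171.9, 216.6 and 247.4 CPM in MGNS. Within finer cluster 11 alone it stood at 158.6, 171.5 and 179.7 CPM in MGHS and at 292.1, 578.4 and 395.0 CPM in MGNS. The fold changes in these were -1.93 ± 0.36 and -1.21 ± 0.33 (edgeR adjusted p 0.107 and 0.235), with the same direction in each. Finer cluster 11 also took in 5.31 to 7.22% of the spinous-like nuclei in MGHS and 4.33 to 12.9% in MGNS. The part of unequal mixtures in the CDH1 difference was not tested.

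DSG1 was also lower in each MGHS animal than in each MGNS animal in granular-like nuclei. It stood at 62.0, 60.9 and 81.2 CPM in MGHS and at 120.3, 103.7 and 173.9 CPM in MGNS, without overlap, with a log2 fold change of -0.96 ± 0.33 (edgeR adjusted p = 0.236). Within finer cluster 3 alone the groups overlapped, at 13.8, 19.2 and 30.4 CPM (plain) in MGHS and 22.6, 28.7 and 52.3 CPM in MGNS. The DSG1 fold changes there and in finer cluster 11 alone were -0.50 ± 0.39 and -0.74 ± 0.32 (edgeR adjusted p 0.543 and 0.400). The part of the unequal mixture of these clusters in the granular-like difference of DSG1 was not tested. In spinous-like nuclei its groups overlapped widely, with a fold change of -0.05 ± 0.41 that turned to 0.58 without MGNS 3. DSG1 and DSG4 were not tested in basal-like and cycling nuclei, where too few UMIs passed the filter. DSG2 was lower in MGHS in each fit: -0.66 ± 0.23 in basal-like, -0.33 ± 0.22 in cycling, -0.54 ± 0.24 in spinous-like and -0.69 ± 0.33 in granular-like nuclei (edgeR adjusted p 0.279 to 0.534). The cycling value became -0.11 without MGHS 3, and the granular-like one was -0.30 ± 0.32 within finer cluster 3 alone (edgeR adjusted p = 0.664). Its basal-like values were 81.0, 81.4 and 59.0 CPM in MGHS and 84.4, 145.5 and 119.2 CPM in MGNS, which only just fail to overlap. MGHS lay wholly below MGNS in 10.6% of genes in basal-like nuclei as well. DSG3 had opposite signs, at -0.47 ± 0.20 in basal-like and 0.17 ± 0.22 in spinous-like nuclei (edgeR adjusted p 0.354 and 0.752). The interaction of those layers was 0.65 ± 0.16 for DSG3 (edgeR adjusted p = 0.158), which did not pass. That test called 13 of 14132 genes (0.0920%), none of the 10. DSG4 had fold changes of 0.23 ± 0.39 in spinous-like and -0.54 ± 0.35 in granular-like nuclei.

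DSC1 had 958.0, 722.1 and 764.8 CPM in granular-like nuclei of MGHS and 1112.8, 1194.2 and 1547.4 CPM in those of MGNS. The groups did not overlap and the log2 fold change was -0.66 ± 0.34 (edgeR adjusted p = 0.387). Within finer cluster 3 alone the groups overlapped, at 256.2, 260.7 and 405.5 CPM (plain) in MGHS and 351.1, 399.0 and 614.9 CPM in MGNS, and the DSC1 fold change was -0.33 ± 0.33 (edgeR adjusted p = 0.645). In finer cluster 11 alone it was -0.50 ± 0.34 (edgeR adjusted p = 0.580). In spinous-like nuclei DSC1 had a fold change of -0.02 ± 0.34. DSC2 was on the other side, with 0.42 ± 0.18 in basal-like, 0.59 ± 0.24 in cycling, 0.46 ± 0.25 in spinous-like and 0.43 ± 0.34 in granular-like nuclei (edgeR adjusted p 0.324 to 0.587), and its groups overlapped in all 4 layers. DSC3 stood at 197.2, 224.0 and 233.3 CPM in basal-like nuclei of MGHS and at 151.6, 180.0 and 193.1 CPM in those of MGNS. All 3 MGHS values were higher, as in 10.7% of genes, with a fold change of 0.32 ± 0.15 (edgeR adjusted p = 0.398). In plain CPM the groups overlapped, with DSC3 in MGNS 2 just above that in MGHS 1. In spinous-like nuclei DSC3 had -0.39 ± 0.22, and the interaction against basal-like nuclei was -0.71 ± 0.17 (edgeR adjusted p = 0.151).

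Of DSP and PKP1, the largest fold change by size in the 4 layers was that of DSP in cycling nuclei. DSP had fold changes of 0.30 ± 0.17 in basal-like, 0.34 ± 0.20 in cycling, 0.23 ± 0.21 in spinous-like and -0.05 ± 0.47 in granular-like nuclei (edgeR adjusted p 0.453 to 0.975). In cycling nuclei it stood at 509.1, 464.1 and 563.0 CPM in MGHS and at 375.0, 455.9 and 379.4 CPM in MGNS, with every MGHS animal higher, as in 9.49% of genes. In plain CPM the groups overlapped, with MGNS 2 at 504.7 above MGHS 2 at 432.9 and MGHS 3 at 497.7. In granular-like nuclei the animals of 1 group differed more than the groups, from 607.8 to 1582.1 CPM in MGHS and from 640.5 to 1372.7 CPM in MGNS. PKP1 lay between 0.12 ± 0.19 and 0.26 ± 0.21 in the 4 layers. Over all 10 genes the median log2 fold change was -0.35 in all keratinocyte-like nuclei, beside 0.01 over all genes tested, and 7 of the 10 were below 0, beside 48.9% of all genes. Scaled by library totals alone, DSC2, DSC3 and DSP also came out below 0 there. That fit pools layers in unequal mixture: spinous-like nuclei made up 15.4 ± 2.33% of keratinocyte-like nuclei in MGHS and 31.7 ± 11.9% in MGNS. PKP1 was -0.30 in the pooled fit though above 0 in each of the 4 layers. With layers weighted equally PKP1 became 0.16 and DSC3 -0.036. The part of the mixture in the pooled values was not tested. The median was -0.29 in granular-like nuclei beside 0.04, with 7 of 10 genes below 0 (47.5% of all genes). There, 4 of 10 genes were lower in every MGHS animal (background 10.6%) and 0 were higher in every one (background 9.97%). In spinous-like nuclei it was 0.05, beside 0.01 over all genes, with 0 of 10 genes free of overlap (background 11.2% lower and 10.4% higher). In basal-like nuclei 8 of the 10 genes passed the filter, with a median of 0.14 beside 0.01 over all genes, 5 of the 8 above 0, 2 higher in every MGHS animal and 2 lower (backgrounds 10.7% and 10.6%). In cycling nuclei the same number passed, with a median of 0.06 beside -0.0025, 4 above 0, 2 higher in every MGHS animal and 1 lower (backgrounds 9.49% and 9.93%). The 2 genes higher in basal-like nuclei, DSC3 and DSP, overlapped there in plain CPM. For DSP, MGNS 2 at 522.6 CPM was above MGHS 2 at 487.4 CPM.

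**Figure D4:**
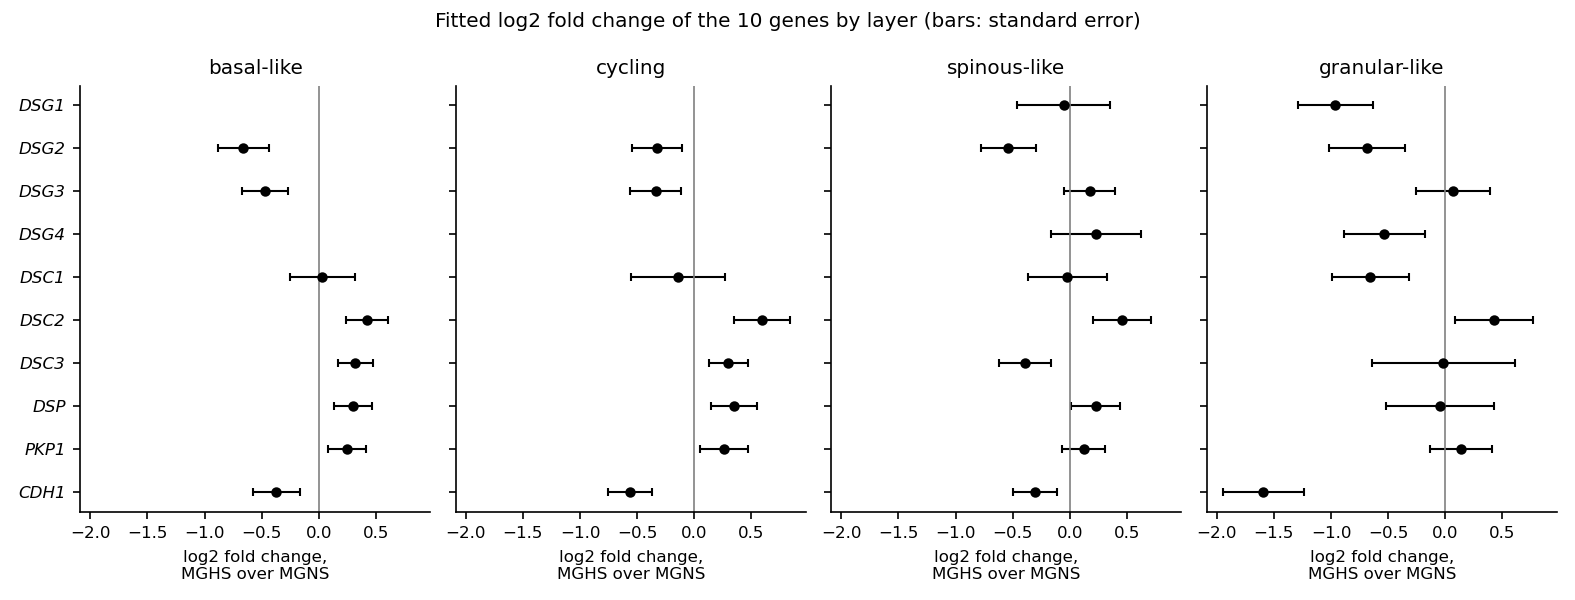
Fitted log2 fold change (MGHS over MGNS) of the 10 genes in each layer, points with bars of 1 standard error; a gap marks a gene not tested there. CDH1 and DSG2 lie left of 0 in all 4 panels and DSC2 right of 0, and CDH1 in granular-like nuclei is farthest left at -1.59.

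The share of a cadherin among its relatives was compared because it does not move with the total count of a class. Such a share is compared between groups and layers and does not measure the proteins' proportions. In granular-like nuclei DSG1 made up 7.10% of DSG1 and DSG3 UMIs in MGHS 1 (95% Wilson interval 6.49 to 7.76), 8.42% in MGHS 2 (7.63 to 9.29) and 7.74% in MGHS 3 (7.26 to 8.24). It made up 14.1% in MGNS 1 (12.9 to 15.3), 10.97% in MGNS 2 (10.1 to 11.9) and 18.7% in MGNS 3 (17.8 to 19.8). These intervals cover counting error only. The groups did not overlap, at 7.75 ± 0.66% in MGHS and 14.6 ± 3.92% in MGNS (SD, n = 3 each, two-sided exact permutation p = 0.1, the smallest that 3 against 3 animals allow). Adjusted over the 15 comparisons of 3 shares in 5 classes, the p was 0.75. Finer cluster 3 made up 71.9 ± 13.8% of the granular-like nuclei in MGHS and 55.6 ± 5.53% in MGNS. The part of that mixture in the DSG1 share was not tested.

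DSG2 made up 15.04 ± 2.40% of DSG1, DSG2 and DSG3 UMIs in spinous-like nuclei of MGHS and 21.9 ± 3.68% in those of MGNS, also without overlap (exact permutation p = 0.1, adjusted 0.75). In granular-like nuclei that share was 23.2 ± 6.59% in MGHS and 31.3 ± 2.78% in MGNS, which overlapped (exact permutation p = 0.2, adjusted 0.75). The share of DSC1 among DSC1 and DSC3 marked the layer more than the group. It was 31.2 ± 7.90% in MGHS and 36.7 ± 4.49% in MGNS in basal-like nuclei, against 97.6 ± 0.61% in MGHS and 96.7 ± 1.62% in MGNS in spinous-like nuclei. In basal-like nuclei DSC1 itself was only 1.42-fold to 4.78-fold its T or NK-like level within the 6 animals. The ranges over animals of those classes overlapped. In all keratinocyte-like nuclei the DSG1 share was 7.09 ± 0.53% in MGHS and 9.13 ± 3.95% in MGNS (exact permutation p = 0.6, adjusted 0.75). Its difference of -2.05 percentage points became 0.142 without MGNS 3.

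**Figure D5:**
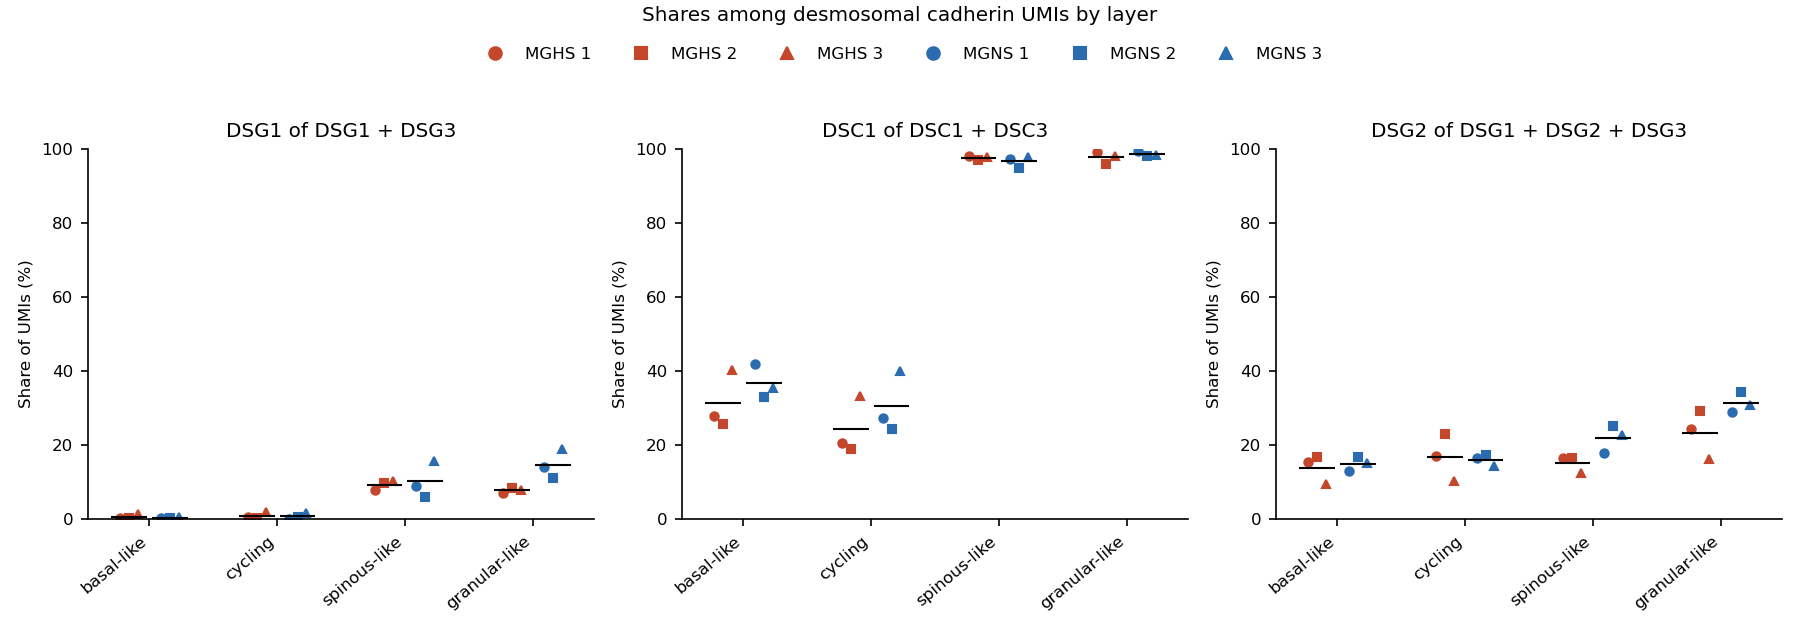
Share (%) of DSG1 among DSG1 and DSG3, of DSC1 among DSC1 and DSC3, and of DSG2 among 3 desmogleins in each layer, 1 point per animal, MGHS red and MGNS blue, black lines at group means. The DSC1 share jumps between cycling and spinous-like nuclei in all animals, and the DSG1 share in granular-like nuclei is lower in MGHS (7.75%) than in MGNS (14.6%).

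Other measures moved with the groups beside these values, and their part in the differences was not tested. Granular-like nuclei made up 39.2 ± 6.25% of keratinocyte-like nuclei in MGHS and 22.7 ± 5.69% in MGNS, and spinous-like nuclei 15.4 ± 2.33% and 31.7 ± 11.9%. With the layers weighted equally, CDH1 had a log2 fold change of -0.75 ± 0.21 (adjusted p = 0.171). In the granular-like sums the 23 granular markers added up to 36949 to 46639 CPM in MGHS and 25863 to 38337 CPM in MGNS. T or NK markers, found in keratinocyte-like nuclei at low level, were lower in MGHS: 14 of 15 had a fold change below 0 in all keratinocyte-like nuclei, and they summed to 241.3 to 308.4 CPM in MGHS and to 401.2 to 621.5 CPM in MGNS. In granular-like nuclei those sums were 198.4 to 246.5 CPM and 392.3 to 678.8 CPM. B or plasma markers summed to 113.6 to 165.1 CPM in MGHS and 180.2 to 318.3 CPM in MGNS, neutrophil markers to 1264.0 to 3674.2 CPM and 4424.9 to 6028.4 CPM, and fibroblast markers to 115.7 to 287.5 CPM and 87.1 to 97.1 CPM. No marker of these 4 cell types was at 0 in all libraries. The neutrophil list summed to 3486.7 to 6655.5 CPM in spinous-like nuclei of MGHS and 7419.7 to 8437.1 CPM in those of MGNS. Over all nuclei it summed to 1219.9 to 4949.8 CPM and 3011.1 to 4103.2 CPM. The source of this list's UMIs in keratinocyte-like nuclei was not tested, so they are not taken as a measure of neutrophil RNA.

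Lists of 9, 12 and 17 related genes were read beside the 10. None of their genes was called in any layer (edgeR adjusted p over all genes), so for each list the 4 genes with the smallest p in all keratinocyte-like nuclei are named. Of 9 other desmosome genes, all 9 were tested there, 3 above 0 and 6 below, with a median log2 fold change of -0.06. PKP2, a plakophilin of simple epithelia and heart, stood at 21.4, 18.8 and 22.1 CPM in MGHS and 32.1, 48.8 and 37.1 CPM in MGNS. Its fold change was -0.92 ± 0.20 (edgeR adjusted p = 0.140), and -1.75 ± 0.33 in granular-like nuclei (adjusted p = 0.143), without overlap in either. KAZN, kazrin, which binds periplakin, had 1.40 ± 0.68 (edgeR adjusted p = 0.327), with 513.4 CPM in MGHS 1 and 75.5 to 113.0 CPM in the other 5 animals. JUP, plakoglobin, which is shared by both junctions, had -0.37 ± 0.24, and PKP3 0.14 ± 0.14 (edgeR adjusted p 0.452 and 0.607).

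PERP, a tetraspan desmosome protein, was chosen after its values were seen. It stood at 455.8, 491.6 and 634.7 CPM in cycling nuclei of MGHS and 284.8, 259.8 and 330.2 CPM in those of MGNS, with a fold change of 0.86 ± 0.21 (edgeR adjusted p = 0.139). In basal-like nuclei PERP had 0.60 ± 0.18 (edgeR adjusted p = 0.243) and again no overlap. EVPL, envoplakin, chosen in the same way, had 0.69 ± 0.17 in spinous-like nuclei (edgeR adjusted p = 0.161).

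Of 12 adherens junction genes, 11 were tested in all keratinocyte-like nuclei, 4 above 0 and 7 below, with a median of -0.02. CTNNA1, alpha-catenin, stood at 212.1, 208.5 and 170.7 CPM in MGHS and at 291.7, 451.4 and 258.6 CPM in MGNS. Its fold change was -0.76 ± 0.26 (edgeR adjusted p = 0.214), without overlap. CTNND1, the p120 catenin that binds E-cadherin, had -0.47 ± 0.24, and VCL, vinculin, -0.68 ± 0.35 (edgeR adjusted p 0.347 and 0.349). AFDN, afadin, which binds nectins, had 0.72 ± 0.36 (edgeR adjusted p = 0.335) with overlapping groups. Of 17 regulators, 16 were tested, 6 above 0 and 10 below, with a median of -0.19. ZEB1, a repressor of CDH1, had -0.39 ± 0.18, GRHL3 -0.86 ± 0.42, GRHL2, an activator of CDH1 in mouse, -0.34 ± 0.19 and SNAI2, also a CDH1 repressor, 0.46 ± 0.28 (edgeR adjusted p 0.307 to 0.404).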

How the data were processed

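The deposited files hold raw UMI counts per gene and barcode, made by the authors with Cell Ranger, version 8.0.0 per the file headers and 2.1.1 per the submitters' processing notes. The sources used here give neither the build, the annotation nor the barcode rule. Numeric gene identifiers were matched to symbols of a RefSeq gene table, 26741 of 26741.

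Nuclei needed at least 300 genes, at most 10% mitochondrial UMIs and a place below the top 0.5% of UMIs. Doublets were removed with Scrublet. It called 0% in MGNS 1 and MGNS 2, where the highest scores were removed instead, at 0.8% per 1000 nuclei. Counts were scaled to 10000, and 2000 variable genes, 30 principal components and 5 neighbours per library went into Leiden clustering (resolution 0.8, best of 20 starts; scanpy 1.11.5). The 10 genes and the 3 lists, 48 genes in all, were kept out of the variable genes.

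Counts were summed per animal and layer. They were filtered with filterByExpr and scaled by TMM, and MGHS was tested against MGNS with edgeR 4.0.16 (quasi-likelihood, Benjamini-Hochberg adjusted). Interactions kept the animal as a block. Alternatives used DESeq2 1.42.0 and limma 3.58.1. Scripts were tested on simulated data. Genes named from lists are those called, otherwise the 4 with the smallest p. The genes, lists and markers were chosen with earlier results of these data known, and some granular and spinous markers came from those results. Finer clusters and the 2 added unnamed clusters were tried after the data were seen.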

Additional observations from a re-analysis of the deposited data

How the results depend on the processing

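Of the fold changes of the 10 genes under alternatives, 724 kept direction and side of the threshold, 2 passed it (CDH1 under DESeq2, -0.90 in all keratinocyte-like and -1.61 in granular-like nuclei) and 48 reversed, in 14 of 46 gene and layer pairs, all with values between -0.40 and 0.58 and adjusted p of 0.355 or more. CDH1 and DSG2 kept their sign in every layer and alternative run. The labels do not say whether equal replicate numbers mark paired animals. Deviations of same-numbered animals correlated between -0.27 and 0.22 over the fits of all keratinocyte-like nuclei and of each layer. With 3 animals per group these values cannot decide whether the animals were paired. With a replicate block, DSP in all keratinocyte-like nuclei was -0.015, DSC1 -0.050 in basal-like and 0.069 in spinous-like nuclei, and DSG1 0.11 in spinous-like nuclei. The block moved the count of genes called to 25 in basal-like and 126 in cycling nuclei.

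Scaling by library totals alone shifted the median of all genes to -0.23 in all keratinocyte-like, -0.09 in basal-like, -0.15 in cycling, -0.12 in spinous-like and -0.27 in granular-like nuclei. It gave DSC2 -0.073, DSC3 -0.051 and DSP -0.24 in all keratinocyte-like nuclei, DSC1 -0.070 in basal-like nuclei, and DSG3 -0.20 and PKP1 -0.16 in granular-like nuclei. With layers weighted equally, DSC3 was -0.036 and PKP1 0.16. With doublets kept, DSP in all keratinocyte-like nuclei was -0.00065, and in granular-like nuclei DSG3 was -0.14, DSC3 0.12 and PKP1 -0.039. With the members among the variable genes, DSG3 was -0.17 and PKP1 -0.20 in granular-like nuclei. At Leiden resolution 1.2, DSC1 was -0.22 in basal-like, PKP1 -0.032 in spinous-like, and DSG3 -0.13 and PKP1 -0.15 in granular-like nuclei. In finer cluster 11 alone DSC3 was 0.016, DSP 0.26 and PKP1 -0.16. Under limma-voom DSC1 in basal-like nuclei was -0.32, and the DSG4 interaction of spinous-like with basal-like nuclei was 0.36.

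Leaving out 1 animal gave DSP -0.27 to 0.19 in all keratinocyte-like nuclei, DSC1 -0.40 to 0.21 in basal-like and -0.64 to 0.33 in cycling nuclei. In spinous-like nuclei it gave DSG1 -0.37 to 0.58, DSG4 -0.12 to 0.70 and DSC1 -0.26 to 0.40, and in granular-like nuclei DSG3 -0.10 to 0.20, DSC3 -0.69 to 0.37 and DSP -0.45 to 0.20. Interactions of granular-like with basal-like nuclei ranged over -0.17 to 0.017 for PKP1, -0.78 to 0.045 for DSP, -0.12 to 0.051 for DSG2, -1.02 to 0.026 for DSG4, -0.14 to 0.18 for DSC2 and -0.92 to 0.040 for DSC3. Those of spinous-like with basal-like nuclei ranged over -0.19 to 0.047 for PKP1, -0.0072 to 0.20 for CDH1, -0.22 to 0.062 for DSP, -0.18 to 0.53 for DSC1, -0.43 to 1.04 for DSG4, -1.30 to 0.47 for DSG1 and -0.080 to 0.19 for DSC2. The DSG1 share difference in all keratinocyte-like nuclei ranged from -3.68 to 0.142 percentage points.

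Counts of genes called depended on the method. Against 0 in all keratinocyte-like, 4 in basal-like, 17 in cycling, 9 in spinous-like, 1 in granular-like and 0 in all nuclei, DESeq2 called 993, 307, 183, 403, 460 and 1408 in that order, and no filter on low counts gave 13, 66, 537, 164, 113 and 22. Library totals gave 5 in all keratinocyte-like, 57 in cycling and 32 in granular-like nuclei. Limma-voom called 35 in basal-like, 33 in cycling, 27 in spinous-like, 0 in granular-like and 304 in all nuclei, and 0 for the interaction of spinous-like with basal-like nuclei. Layers weighted equally gave 6, and finer clusters 3 and 11 gave 0 each. Resolution 1.2 gave 2 in basal-like and 0 in spinous-like nuclei, members among the variable genes 2 in spinous-like and 28 in cycling nuclei, and doublets kept 0 in granular-like, 3 in cycling and 12 in all nuclei. Leaving out 1 animal gave 0 to 154 in all keratinocyte-like nuclei (154 without MGHS 3), 0 to 10 in basal-like, 1 to 142 in cycling (142 without MGNS 3), 0 to 17 in spinous-like, 0 to 21 in granular-like (21 without MGHS 3) and 0 to 52 in all nuclei. For the interactions it gave 0 to 141 in granular-like (141 without MGHS 3) and 0 to 30 in spinous-like nuclei. The causes were not tested. Levels near those of T or NK-like nuclei, as for DSG1 and DSG4 in basal-like nuclei, limit what can be compared there.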
